A study of Saccharomyces cerevisiae with 8 samples.

Results

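Cytosolic ribosomal protein genes were taken as the S. cerevisiae genes whose platform symbol is RPL or RPS followed by a number and an optional A or B, or one of the stalk genes RPP0, RPP1A, RPP1B, RPP2A and RPP2B. The choice used names and no measured value. It gave 127 of the 5449 S. cerevisiae genes with a named probe set, read by 147 of 5498 probe sets. Of the 127 genes, 75 encode proteins of the large (60S) subunit and 52 encode proteins of the small (40S) subunit. Each gene is given by its brightest probe set. For 102 genes this was a probe set designed for 1 transcript. For 19 genes it was a shared set of the _s_at kind, which can match several transcripts, and for 6 genes a set of the _x_at kind, which can cross-hybridise. The gene table of RefSeq holds 137 symbols of this form, and the 10 without a named probe set were not analysed here.

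The arrays compare 2 strains of the budding yeast Saccharomyces cerevisiae with 4 separate cultures each and 1 Affymetrix Yeast 2.0 array per culture. The CDC34tm strain is RRC85, MATα, with a CDC34tm allele marked by the nourseothricin resistance gene NatR. CDC34 encodes a ubiquitin-conjugating enzyme, the partner of SCF ligases, and the labels do not spell out what the allele changes. The wild type (WT) is DBY2059, MATα, leu2-3, 112, and is described as isogenic. The design text lists leu2-3, 112 for WT alone, whereas the sample labels list it for all 8 samples, together with a partly disrupted PST1 3' region. Each strain is given by 1 strain name, so a strain effect and an effect of the allele cannot be told apart. All cultures grew at 30 °C for 3 to 4 doublings from stationary phase in synthetic medium with 2% dextrose, 0.25% glutamine and 25.2 mg/L leucine.

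A ribosome is built from ribosomal RNA and one copy of most of these proteins, and in growing yeast their mRNAs are among the most abundant in the cell. Most of the proteins are encoded by a pair of paralogs, named A and B, left from an ancient genome duplication, whose products are nearly identical. Transcription of the family is driven by Rap1, Fhl1, Ifh1 and Sfp1 under the control of the TOR and Sch9 kinases, and it drops together when growth slows or stress sets in.

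Several measurements describe the arrays as a whole. The deposited signals share one scale across arrays, which hides any difference in the total mRNA of a cell, and fewer expressing cells cannot be told apart from less RNA per cell. CDC34 itself averaged 1398 ± 57.4 in CDC34tm and 1387 ± 128 in WT (SD, 4 cultures each), a log2 fold change of 0.01 with a 95% interval of -0.16 to 0.19, so its signal does not check the strain labels. The α-specific genes MF(ALPHA)1 and STE3 were bright in both strains, with 13024 and 5873 in CDC34tm and 12916 and 6792 in WT. The a-specific receptor gene STE2 was at 259 in CDC34tm and 227 in WT. WT replicates 1 and 4 stood apart in 18 heat shock genes, a list chosen because earlier results showed this split in it, and whose median log2 signal was 10.13, 10.07, 10.03 and 10.05 in CDC34tm replicates 1 to 4 and 12.65, 10.72, 10.66 and 12.76 in WT replicates 1 to 4. CDC34tm replicate 2 stood apart in the ribosomal protein genes themselves, as given below. Correlations between arrays, over all tested probe sets, were at least 0.993 among CDC34tm cultures, at least 0.980 among WT cultures, and at least 0.955 across strains.

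The family was bright in both strains. Mean signals of the 127 genes ran between 1660 and 16628 with a median of 11989 in CDC34tm, and between 1733 and 16407 with a median of 11911 in WT. All 127 genes passed the filter on dim probe sets, and 124 lay above the 90th percentile of the tested probe sets. The ribosomal protein genes made up 12.01 ± 0.448% of the summed signal in CDC34tm and 11.93 ± 0.301% in WT (SD, 4 cultures each). A signal depends on the probes as well as on the transcript, so the order of genes by signal is not an order of mRNA levels. The brightest were RPS21A with 16628 ± 842 in CDC34tm and 16407 ± 732 in WT, RPS15 with 16566 ± 949.5 in CDC34tm and 16293 ± 906 in WT, and RPL3 with 15549 ± 674 in CDC34tm and 16027 ± 675 in WT. The dimmest were RPL15B, RPL41A and RPS9A. Among the 14 probe sets for ribosomal proteins of the fission yeast S. pombe, mean signals were between 2.09 and 22.6.

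Signals of the ribosomal protein genes were close to the same in the 2 strains, while much of the transcriptome differed. With limma at an adjusted p under 0.05, 4 of the 127 genes rose in CDC34tm (RPS10B, RPS9A, RPS28B and RPS27A) and 0 fell, or 3.15%, against 38.6% of all 5437 tested probe sets, of which 18.9% were called higher and 19.7% lower. At an unadjusted limma p under 0.05 the count of ribosomal protein genes was 7 of 127, against 2638 of the 5437 tested probe sets. A correction for a trend with gene length gave 2 higher and 11 lower with limma, and without WT replicate 3 the counts were 3 higher and 3 lower. The median log2 fold change, CDC34tm over WT, was 0.01 with quartiles of -0.02 and 0.04, and 69 genes had a positive and 58 a negative value. Over all tested probe sets the median was 0.00, with quartiles of -0.21 and 0.19.

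The spread of the family was narrow. The SD of the log2 fold changes was 0.0715 over the 127 genes and 0.426 over all tested probe sets. Log2 fold changes beyond 0.2 in either direction were found for 5 ribosomal protein genes (3.94%) and for 2691 of all tested probe sets (49.5%). The 95% interval of the fold change lay within 1.25-fold of equality for 121 of 127 genes, against 1853 of all tested probe sets (34.1%). The 6 genes with wider intervals were RPL15B, RPL41A, RPL4B, RPS10B, RPS28B and RPS9A. Among the 401 tested probe sets of other genes above the 90th percentile of level, the interval lay within this limit for 313 (78.1%). The comparison with all tested probe sets is thus not matched for brightness. The 2 strains had no overlap in signal for 6 genes (4.72%, against 39.5% of all tested probe sets), namely RPL23A, RPL43A, RPL4B, RPS10B, RPS28B and RPS9A.

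**Figure D1:**
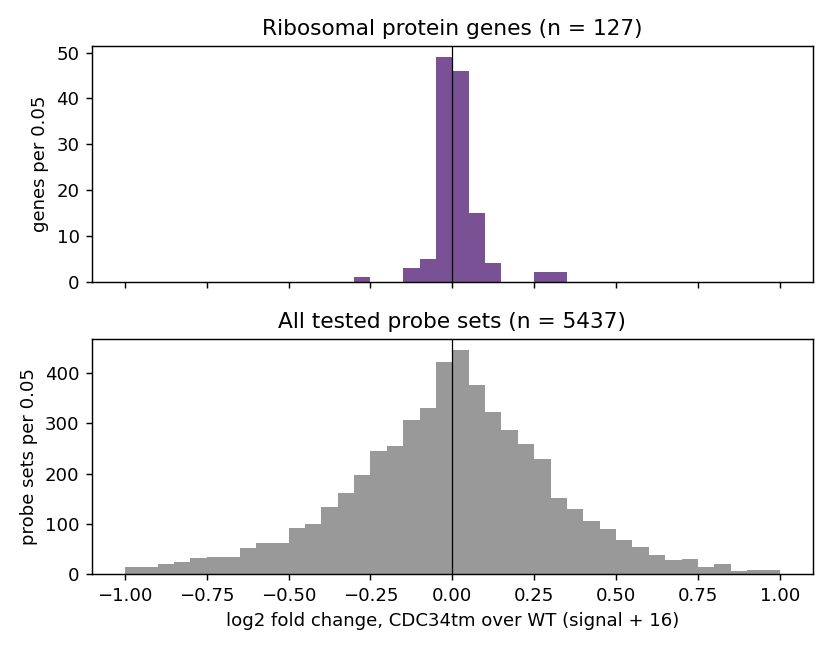
Histograms of log2 fold changes, CDC34tm over WT on the log2(signal + 16) scale, in bins of 0.05, for the 127 ribosomal protein genes (top) and all 5437 tested probe sets (bottom). The ribosomal protein genes lie between -0.25 and 0.32, and the 170 tested probe sets beyond 1 in either direction are not drawn.

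The ribosomal protein genes had a median percentile of level of 98.0, against 93.9 for the other genes above the 90th percentile, so the next values are not matched for brightness. Among the 401 tested probe sets of other genes above the 90th percentile of level, 125 (31.2%) were called with limma at an adjusted p under 0.05, 70 higher and 55 lower, and the SD of their log2 fold changes was 0.188. The brightest ribosomal protein signal was 17911, for RPS15 on CDC34tm replicate 2, where the brightest signal of any probe set was 20441. Whether signals flatten at the top of the scale was not tested.

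Among proteins of the 60S subunit, 0 of 75 genes were called in either direction by limma at an adjusted p under 0.05, and 3 had an unadjusted p under 0.05. Over all 5437 tested probe sets, 38.6% were called, and 2638 had an unadjusted limma p under 0.05. The 75 genes had a median log2 fold change of -0.01, with 37 positive and 38 negative values. The 5 stalk genes encode the flexible arm that recruits elongation factors. RPP0, its base, had 10507, 11631, 11159 and 10619 in CDC34tm and 11485, 11141, 11059 and 10800 in WT, a log2 fold change of -0.02 (limma adjusted p = 0.741). RPP1A, RPP1B, RPP2A and RPP2B, which form the tips of the stalk, had log2 fold changes of 0.00, 0.03, -0.04 and 0.01. The ranges of the strains overlapped for each of the 5, and each 95% interval lay within 1.25-fold.

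RPL5 and the paralogs RPL11A and RPL11B encode the proteins that travel with the 5S ribosomal RNA into the 60S subunit. Their log2 fold changes were -0.02, -0.03 and 0.04, the last from a shared probe set. RPL3 and RPL10, whose products sit near the peptidyl transferase centre, had -0.04 and 0.02. Genes for ubiquitin fused to a ribosomal protein bear on both subunits, since their products are cut into free ubiquitin and the ribosomal protein. RPL40A had 10867, 12646, 10938 and 11109 in CDC34tm and 12066, 11936, 10795 and 10693 in WT, a log2 fold change of 0.00 (limma adjusted p = 0.985). RPL40B and the 40S gene RPS31 had -0.03 and 0.02, so none of the 3 fusion genes was called.

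Of the 13 measured genes for proteins that line the peptide exit tunnel or its rim, none was called, against 38.6% of all tested probe sets. Their median log2 fold change was -0.02. Negative values were found for 10 of 13, against 38 of the 75 60S genes and 2718 of the 5437 tested probe sets. Whether these shares differ was not tested. RPL4B encodes a protein with a long loop in the tunnel. Its signals were 10078, 6796, 9844 and 8613 in CDC34tm and 10410, 10589, 10394 and 10193 in WT. All 4 CDC34tm cultures lay below all 4 WT cultures, and replicate 2 lay far below the other CDC34tm cultures. The log2 fold change was -0.25 ± 0.106 (SE, limma adjusted p = 0.0870). Its value was -0.13 without CDC34tm replicate 2, and -0.32 with an adjusted p of 0.0483 without CDC34tm replicate 1, both with limma. These compare with a log2 fold change of -0.01 for RPL4A, which was read by a shared probe set.

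Other 60S genes came near the threshold. RPL23A, whose product lies at the subunit interface, had 12297, 13514, 13234 and 12800 in CDC34tm and 12086, 12276, 12099 and 11640 in WT. The groups did not overlap, and the log2 fold change was 0.11 ± 0.04 (SE, limma adjusted p = 0.0502). RPL43A, for a zinc-binding protein, had 10219, 10234, 10374 and 9814 in CDC34tm and 11222, 11660, 10469 and 10708 in WT. Every CDC34tm value was below every WT value, and the log2 fold change was -0.12 ± 0.04 (SE, limma adjusted p = 0.0548). RPL41A, for the smallest protein of the ribosome, had 1806, 2605, 1830 and 2354 in CDC34tm and 1786, 1877, 1236 and 2032 in WT from a shared probe set. These ranges overlapped, and the log2 fold change of 0.31 ± 0.167 (SE) had a limma adjusted p of 0.161. For RPL41A, leaving out 1 array at a time gave 0.16 (without WT replicate 3) to 0.40 (without WT replicate 4).

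Among proteins of the 40S subunit, 4 of 52 genes (7.69%) rose and 0 fell with limma at an adjusted p under 0.05. Over all tested probe sets, 38.6% were called, 18.9% higher and 19.7% lower. The 52 genes had a median log2 fold change of 0.02, with 32 positive and 20 negative values. Whether the subunits differ in this count was not tested. RPS10B encodes a protein of the head of the 40S subunit. Its signals were 6392, 8381, 7068 and 7202 in CDC34tm and 5399, 6221, 5697 and 5853 in WT, from a probe set of the _x_at kind. Every CDC34tm culture was above every WT culture, and the log2 fold change was 0.32 ± 0.0793 (SE, limma adjusted p = 0.0108), or 1.25-fold. A second probe set of RPS10B, designed for 1 transcript, had 5709, 7254, 5737 and 6130 in CDC34tm and 4841, 5733, 4901 and 5232 in WT. There the cultures overlapped by a small margin, and the log2 fold change was 0.26 (limma adjusted p = 0.0366).

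RPS9A encodes a protein at the mRNA entry that takes part in decoding fidelity. It had 5529, 6022, 5561 and 5917 in CDC34tm and 4430, 5194, 4875 and 4596 in WT. The groups did not overlap, with means of 5757 ± 249 in CDC34tm and 4774 ± 335 in WT (SD, 4 cultures each). The log2 fold change was 0.27 ± 0.0596 (SE, limma adjusted p = 0.0062), or 1.21-fold. The 7 measured genes listed for the mRNA entry and decoding side were RPS2, RPS3, RPS9A, RPS9B, RPS23A, RPS23B and RPS30A. Among them RPS9A was the one called, against 38.6% of all tested probe sets. RPS3 and RPS2, for proteins of the entry channel, had log2 fold changes of 0.00 and -0.03.

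RPS28B encodes a protein at the mRNA exit, and in yeast the Rps28 protein promotes the decay of RPS28B mRNA together with the decapping factor Edc3. Its signals were 8238, 9810, 8134 and 8160 in CDC34tm and 7020, 7342, 7486 and 6597 in WT. All CDC34tm cultures were above all WT cultures, with replicate 2 the highest. The log2 fold change was 0.27 ± 0.0687 (SE, limma adjusted p = 0.0126), or 1.20-fold. It was 0.21 with a limma adjusted p of 0.0603 without WT replicates 1 and 4, and 0.12 with an adjusted p of 0.205 after a correction for gene length. Of the 10 measured genes for proteins on the mRNA exit side, RPS28B alone was called, against 38.6% of all tested probe sets. RPS14A and RPS14B, whose protein represses splicing of RPS14B transcripts, both had a log2 fold change of 0.00.

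RPS27A encodes a zinc-binding protein on the solvent side. It had 13521, 14201, 13831 and 12910 in CDC34tm and 12190, 13178, 12598 and 11681 in WT. The lowest CDC34tm culture lay below the highest WT culture, and the log2 fold change was 0.13 ± 0.05 (SE, limma adjusted p = 0.0421), or 1.10-fold. The call held under 13 of the 22 alternative settings tried, and without WT replicates 1 and 4 the log2 fold change was 0.08 (limma adjusted p = 0.242). RPS10B and RPS9A were called under 22 of 22, with log2 fold changes between 0.25 and 0.38 for RPS10B and between 0.19 and 0.35 for RPS9A. Without WT replicates 1 and 4, limma at an adjusted p under 0.05 called 3 ribosomal protein genes higher, which were RPS10B, RPS9A and RPS10A, and 0 lower.

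**Figure D2:**
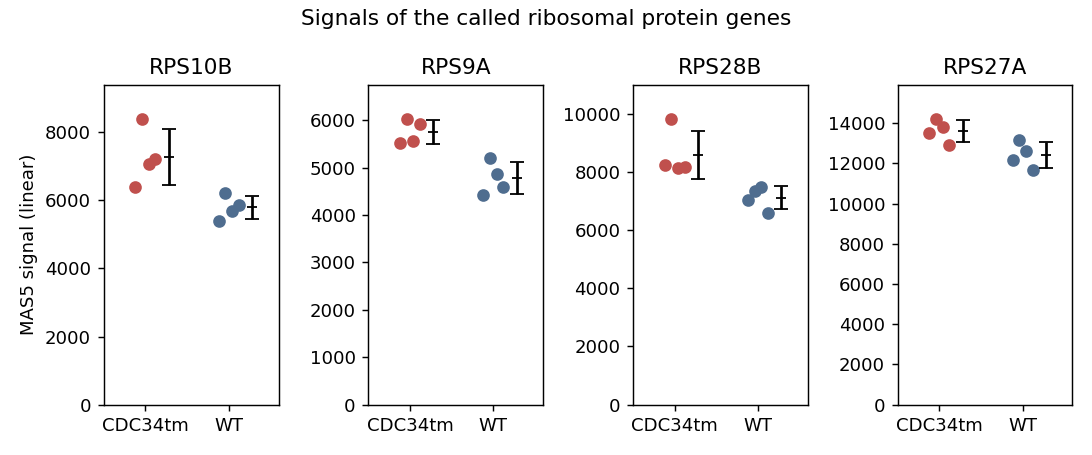
Linear MAS5 signals of RPS10B, RPS9A, RPS28B and RPS27A on each array, CDC34tm left and WT right, with the mean and SD over 4 cultures beside the points, and axes starting at 0. Every CDC34tm point is above every WT point for RPS10B, RPS9A and RPS28B, and for RPS27A the strains overlap.

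All 4 genes that rose have a measured paralog, and in 3 of 4 pairs the paralog's log2 fold change was under 0.05. RPS9B had -0.01, RPS28A had 0.03, RPS27B had 0.04 and RPS10A had 0.10, with limma adjusted p values of 0.961, 0.692, 0.404 and 0.180. A called gene beside an uncalled paralog is not a test of the difference between them. The 18 genes with no A or B in the name had log2 fold changes between -0.04 and 0.05. None was called, against 38.6% of all tested probe sets. Whether a response differs between paralogs was measured as the log2 signal of A minus that of B on each array, set between the strains. An array's overall brightness cancels in this difference if both probe sets respond to it alike, which was not tested. The level of this difference depends on the probes, and only its change between strains is read.

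Of 50 pairs with both genes measured, 36 by probe sets designed for 1 transcript, A minus B did not overlap between the strains in 7 (14%). An exact permutation test over cultures (two-sided, 70 assignments) gave each of the 7 a p of 0.0286, the smallest this design allows, and a Benjamini-Hochberg adjusted p over the 50 pairs of 0.204. No pair passed after adjustment. With WT replicates 1 and 4 left out, 13 pairs had no overlap, and with WT replicates 2 and 3 left out, 15 pairs had none. Smaller groups overlap less often by construction, so these counts cannot be set against the 7 from all arrays. The median absolute difference between strains was 0.05 on the log2 scale. It was under 0.05 in 26 pairs and over 0.2 in 4 pairs, RPS9, RPL4, RPS28 and RPS10.

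RPS9A minus RPS9B was -1.28, -1.34, -1.31 and -1.04 in CDC34tm and -1.71, -1.41, -1.50 and -1.45 in WT. The A paralog was thus relatively higher in all 4 CDC34tm cultures, by 0.28 on average. RPS28A minus RPS28B was 0.27, 0.30, 0.38 and 0.37 in CDC34tm and 0.63, 0.57, 0.42 and 0.65 in WT. Here the B paralog was relatively higher in CDC34tm, with a difference of -0.24. RPS10A minus RPS10B, both read by _x_at probe sets, differed by -0.22 between the strains with overlapping groups (exact permutation p = 0.114). The WT values were 1.45 and 1.41 in replicates 1 and 4, against 1.18 and 1.16 in replicates 2 and 3. The difference was -0.21 without overlap when both genes were read by probe sets designed for 1 transcript (exact permutation p = 0.0286). RPS27A minus RPS27B differed by 0.09 between the strains, with overlapping groups (exact permutation p = 0.0857).

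**Figure D3:**
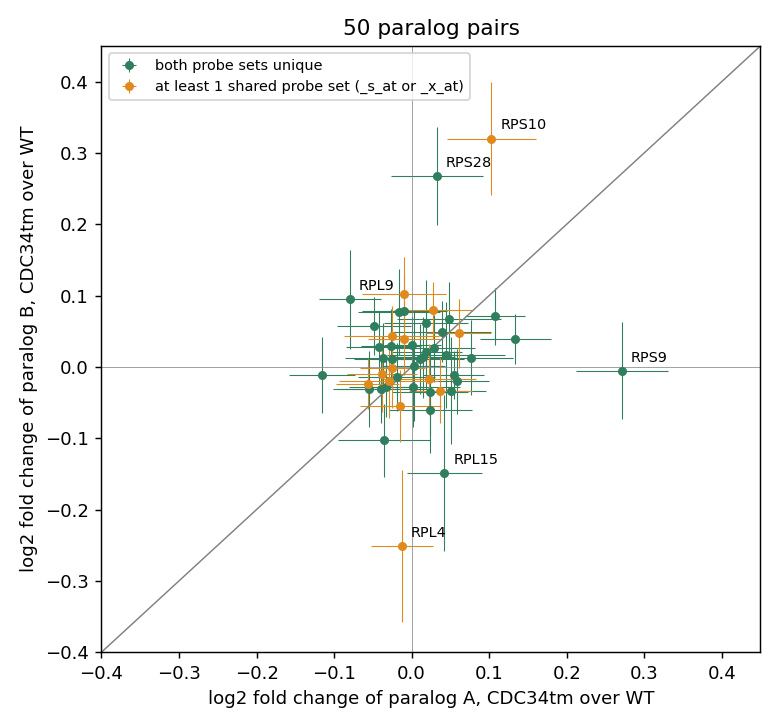
Log2 fold change, CDC34tm over WT, of paralog A (horizontal) against paralog B (vertical) for 50 pairs, with bars of 1 SE and the line of equal change. Most pairs lie near the origin, and the 6 pairs with the largest differences are named, with RPS28 and RPS10 above the line and RPS9 below it.

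RPL4A minus RPL4B was 0.19, 0.90, 0.28 and 0.46 in CDC34tm and 0.26, 0.20, 0.18 and 0.21 in WT. CDC34tm replicate 2 was the highest of the 8 cultures, the groups overlapped, and the mean difference was 0.24 (exact permutation p = 0.171). RPL15, for a core 60S protein, and RPL9, for a protein at the base of the stalk, differed by 0.19 and -0.17, with exact permutation p values of 0.257 and 0.229. Both pairs overlapped between the strains. In RPL15, CDC34tm replicate 2 was at 3.05, against 2.37 to 2.57 in the other CDC34tm cultures and 2.34 to 2.59 in WT. In RPL9, CDC34tm cultures had 0.47 to 0.64, while WT replicates 1 and 4 had 0.88 and 0.94 and WT replicates 2 and 3 had 0.64 and 0.61.

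The other pairs without overlap had small differences. RPL8, a 60S pair read in part by a shared probe set, had A minus B at 0.52, 0.50, 0.52 and 0.51 in CDC34tm and 0.45, 0.45, 0.44 and 0.44 in WT, a difference of 0.07 with little spread in either strain. RPS26, for a protein at the mRNA exit, had a difference of -0.11, with RPS26A read by an _x_at probe set. With probe sets designed for 1 transcript in both genes, the RPS26 difference was -0.12, also without overlap. RPL17, at the tunnel exit, also had -0.11, whereas RPL6 and RPL24, for 60S surface proteins, had 0.08 and 0.07. In 4 of the 7 pairs the A paralog was the one relatively higher in CDC34tm. The pairs with the smallest differences were RPS14, RPL36 and RPL12, at 0.00 each.

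**Figure D4:**
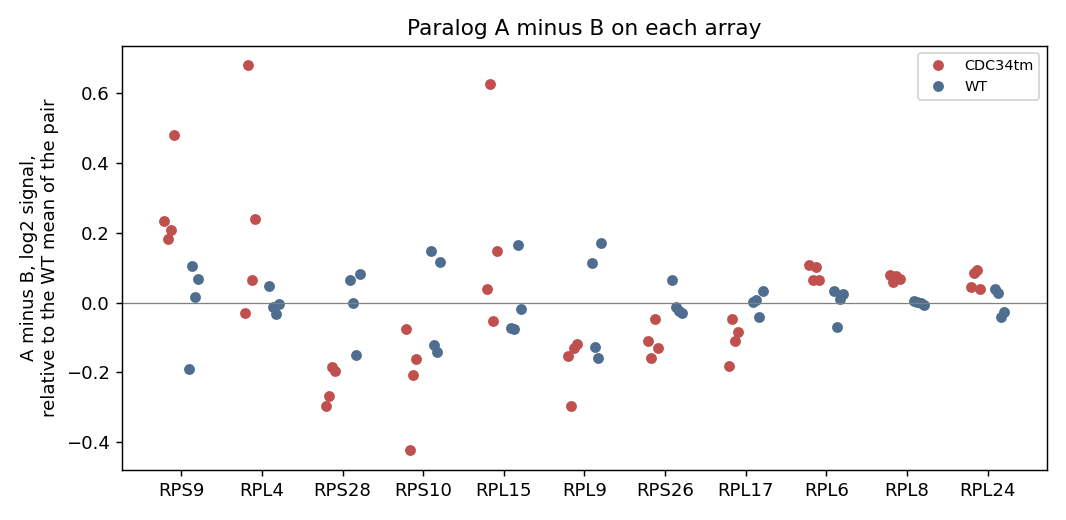
Log2 signal of paralog A minus paralog B on each array, relative to the WT mean of the pair, for the 6 pairs with the largest differences and the other pairs without overlap, with CDC34tm left of WT. The points of RPL4 and RPL15 include 1 CDC34tm culture, replicate 2, far above the rest, and the RPL8 points are the tightest drawn.

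With probe sets designed for 1 transcript in both genes wherever one exists, 7 of 49 pairs did not overlap, among them RPS10 and without RPL8. For the 20 genes with 2 probe sets, both probe sets gave the same call in 20 of 20, and their log2 fold changes differed by a median of 0.05 and by at most 0.16, in RPS17B. The 6 genes given by an _x_at probe set had log2 fold changes between -0.04 and 0.32.

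One culture stood out across the family. The median signal of the 127 genes was 11553, 12666, 11856 and 11742 in CDC34tm replicates 1 to 4, and 12134, 12199, 11581 and 11498 in WT replicates 1 to 4. The means of these medians were 11954 ± 491 in CDC34tm and 11853 ± 365 in WT (SD, 4 cultures each), and the ranges overlapped. CDC34tm replicate 2 was the brightest CDC34tm array for 108 of 127 genes, while its median log2 signal over all tested probe sets was 10.22, against 10.24 to 10.30 on the other CDC34tm arrays. It was the lowest CDC34tm array for 6 genes, among them RPL4B and RPL15B. The part of RNA or array quality in this was not tested. Without it, limma at an adjusted p under 0.05 called 3 genes higher and 0 lower, and the median log2 fold change was -0.03.

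**Figure D5:**
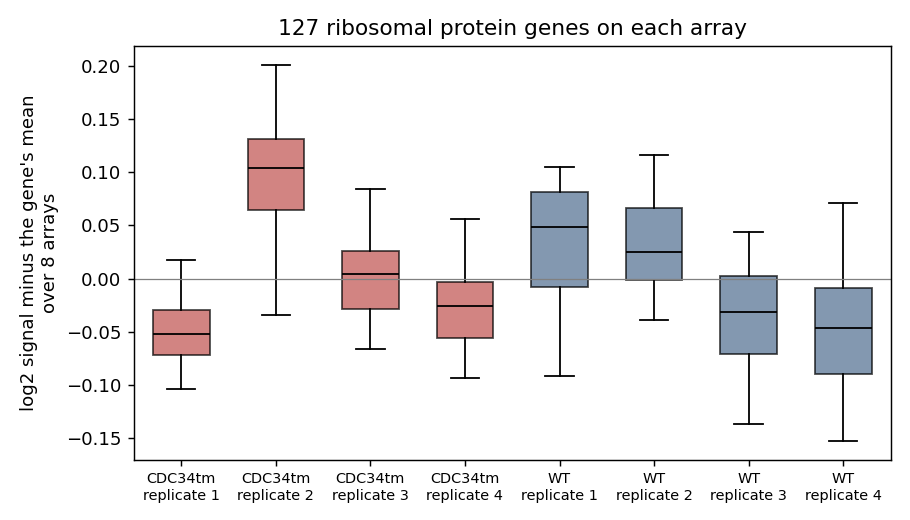
Log2 signal of the 127 ribosomal protein genes on each array minus the gene's mean over 8 arrays, as boxes of the quartiles with the median line and whiskers at the 5th and 95th percentiles, CDC34tm left and WT right. CDC34tm replicate 2 has the highest box, and WT replicates 1 and 4, which stand apart in heat shock genes, do not lie on one side.

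The median of the ribosomal protein genes did not separate WT replicates 1 and 4 from 2 and 3. A minus B of the RPL9 and RPS10 pairs did. Groups of 2 often separate without a real difference, and how many of the 50 pairs did so was not counted here. WT replicate 1 was the brightest WT array for 64 genes and replicate 2 for 45, and replicate 4 was the brightest for 7. The largest SDs among WT arrays belonged to RPL41A, RPS14B and RPS22A. The median coefficient of variation of a gene over the 4 cultures was 5.20% in CDC34tm and 4.64% in WT.

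Of 14 measured regulators of ribosomal protein transcription, 2 rose and 3 fell with limma at an adjusted p under 0.05, with a median log2 fold change of -0.01. This is 35.7% called, near the 38.6% of all tested probe sets. When WT replicates 1 and 4 were omitted, 1 of these genes was called higher and 5 were called lower. When WT replicates 2 and 3 were omitted, 6 were called higher and 3 lower. The share of all tested probe sets called without these cultures is not given here, so these counts are not read as particular to the regulators. SCH9, for the growth-promoting kinase, had 1671, 1215, 1739 and 1557 in CDC34tm and 2249, 2316, 2390 and 2402 in WT, and it fell by 0.61 on the log2 scale (limma adjusted p = 0.0018). SFP1, for the activator under TOR control, averaged 1370 ± 85.6 in CDC34tm and 1844 ± 209 in WT (SD, 4 cultures each) and fell by 0.42 (limma adjusted p = 0.0052). TOR2, for a TOR kinase, fell by 0.26. CRF1, named as a corepressor of ribosomal protein genes, rose to 65.8 ± 4.10 in CDC34tm, against 42.4 ± 2.33 in WT (SD, 4 cultures each), a log2 fold change of 0.49, and ABF1, for a DNA-binding factor, rose by 0.27. The calls of CRF1, SCH9 and SFP1 held under 22 of 22 alternatives, that of TOR2 under 20 and that of ABF1 under 16. Log2 fold changes of RAP1, FHL1, IFH1 and HMO1, the promoter-bound factors, were 0.18, 0.27, -0.02 and -0.14, and none was called with all arrays. These depended on the WT cultures, since leaving out WT replicates 2 and 3 gave calls for all of them, at 0.40, 0.41, 0.21 and -0.29. IFH1 was called in the other direction, at -0.24 (limma adjusted p = 0.0242), when WT replicates 1 and 4 were left out, and FHL1 was called under 5 of 22 alternatives.

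A list of 10 measured chaperone genes was drawn up, most of them for chaperones that escort 1 ribosomal protein or a few. It includes HGH1, for which no ribosomal protein client is given here. Of the 10, 5 rose and 0 fell with limma at an adjusted p under 0.05, or 50%. The share was 38.6% of all tested probe sets (18.9% higher). All 10 log2 fold changes were positive, with a median of 0.20. FAP7, for the partner of Rps14, had 4749, 5169, 4690 and 4877 in CDC34tm and 3086, 3652, 3537 and 3231 in WT, a log2 fold change of 0.53 (limma adjusted p = 0.000307). TSR2, for the partner of Rps26, averaged 4016 ± 240 in CDC34tm and 2870 ± 536 in WT (SD, 4 cultures each), a log2 fold change of 0.50 (limma adjusted p = 0.0082). SYO1, ACL4 and RRB1, for partners of Rpl5 with Rpl11, of Rpl4 and of Rpl3, rose by 0.47, 0.28 and 0.23. Among the genes of these client proteins, log2 fold changes were 0.00 for both RPS14 genes, -0.01 and 0.10 for RPS26A and RPS26B, -0.02 for RPL5, -0.03 and 0.04 for RPL11A and RPL11B, -0.01 and -0.25 for RPL4A and RPL4B, and -0.04 for RPL3, and none was called.

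The chaperone counts moved with the WT cultures. The median log2 signal of the 10 chaperone genes was 11.97, 12.11, 12.01 and 12.01 in CDC34tm replicates 1 to 4, and 11.57, 11.87, 11.81 and 11.65 in WT replicates 1 to 4. WT replicates 1 and 4 were the lowest. Without them 2 chaperone genes were called higher by limma at an adjusted p under 0.05 with a median log2 fold change of 0.09, and without WT replicates 2 and 3 the count was 7 with a median of 0.36. The count was 3 without CDC34tm replicate 2. Shares of all tested probe sets called with these cultures left out are not given here. FAP7 and TSR2 were called under 22 of 22 alternatives, ACL4 under 21, SYO1 under 16 and RRB1 under 15.

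In other lists of the translation machinery, calls by limma at an adjusted p under 0.05 made up 10% of 10 elongation factor genes, 16.7% of 12 ribosome-associated factors and 5% of 20 ribosome biogenesis genes, against 38.6% of all tested probe sets. Of the elongation factor genes, 0 rose and 1 fell. This was ANB1, for the hypoxic form of eIF5A, with 1087, 1073, 1048 and 1082 in CDC34tm and 3469, 1252, 1454 and 2750 in WT, where replicates 1 and 4 were the highest. The log2 fold change of ANB1 was -0.92 (limma adjusted p = 0.0263). It was -0.33 with WT replicates 1 and 4 left out and -1.51 with WT replicates 2 and 3 left out, and the call held under 17 of 22 alternatives. Of 12 ribosome-associated factors, NAT5, for a subunit of an N-terminal acetyltransferase, and BTT1, for a subunit of the nascent polypeptide-associated complex, rose by 0.64 and 0.56. ASC1, for the scaffold protein on the 40S head, had a log2 fold change of 0.00. Of 20 ribosome biogenesis genes, 1 rose, NMD3 for the 60S export adaptor, by 0.21 (limma adjusted p = 0.0391). The call of NMD3 held under 14 of 22 alternatives. Without WT replicates 1 and 4 the list had 0 higher and 2 lower, against 9 higher and 0 lower without WT replicates 2 and 3. How many of all tested probe sets were called in these settings is not given here.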

How the data were processed

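Total RNA was labelled as biotin cRNA from oligo-dT primed cDNA in a single cycle, per the labels' protocols. The authors deposited linear array intensities (MAS5 signals, per the submitters' processing notes), and the MAS5 version is not given in the sources. The trimmed mean without the top and bottom 2% was close to 1000 on every array. The table holds 10928 probe sets, of which 5498 were named as 1 S. cerevisiae gene through the platform table, with 12 symbols updated through RefSeq.

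Probe sets above the 95th percentile of the S. pombe probe sets (12.3 to 14.6) on at least 4 of 8 arrays were tested, which kept 5437 and left out 61. log2(signal + 16) was fitted with limma 3.58.1 in R 4.3.3 (eBayes with a trend, two-sided). P-values were adjusted by Benjamini-Hochberg over the 5437 probe sets, and 0.05 was the threshold. Folds on this scale understate changes of dim genes. Errors are SDs over 4 cultures or SEs of the fit. The number of arrays limits the precision. The steps were tested on simulated data.

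Pairs were compared by an exact permutation test. The members and lists were chosen with earlier results of these data known. Genes named by rule were called members, the 6 most and 3 least different pairs, the 3 brightest, dimmest and most variable members, the stalk genes, up to 4 called genes per list and CDC34. Other genes were named after their values were seen. Replicate numbers were not taken to pair cultures. The alternatives covered pseudocount, normalization, centring, filter, variance trend, gene length, choice of probe set, block and arrays left out. Promoter and protein sequences were not analysed here.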

Additional observations from a re-analysis of the deposited data

Results flagged for a closer look

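For the 46 genes named by rule, the 6 most different pairs and the family's median, 106 groups of 4 cultures were checked for a culture far from the other 3 by Dixon's ratio at its 95% critical value, a limit that chance passes in about 1 group in 20, and 7 groups passed it.

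CDC34tm replicate 2 was the high culture in 5 of them. It had a signal of 9810 for RPS28B, against 8134 to 8238 in the other CDC34tm cultures. RPL15A was at 11116.5, against 9800 to 9843. RPL9B was at 7587, against 6835 to 6906. RPS14B was at 6834.5, against 6245 to 6266. The chaperone gene RRB1 was at 8691, against 8211 to 8217. This array was also the brightest CDC34tm array for 108 of the 127 ribosomal protein genes.

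WT replicate 1 was the far culture in the other 2. The stalk gene RPP2B was at 11481, against 10831 to 10929 in the other WT cultures, and TOR2 was at 1313, against 1498 to 1535. RPP2B was not called between the strains.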

How the results depend on the processing

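Results were recomputed under 22 alternatives. Of 86 named genes, 61 had the same call under every one of them, and none called in the reported analysis reversed direction. IFH1, not called there, was called at 0.21 without WT replicates 2 and 3 and at -0.24 without WT replicates 1 and 4. RPS10B and RPS9A were called under 22 of 22, RPS28B under 20 and RPS27A under 13, RPL23A was added under 8 and RPL43A under 4. The count of genes called lower was 0 in the reported analysis, 1 after quantile normalization and 1 with arrays centred on the ribosomal protein median, which was chosen after seeing the data. A correction for a trend with gene length, taken from RefSeq with introns included, gave 2 higher and 11 lower, a median log2 fold change of -0.0500 over the family and -0.0398 over 40S genes, and the cause was not tested. Leaving out 1 array at a time gave 3 to 4 genes higher, 0 to 3 lower (1 without CDC34tm replicate 1, RPL4B, and 3 without WT replicate 3, RPL43A, RPL9A and RPS1B), 7 to 10 pairs without overlap, and medians of -0.03 to 0.03 over the family. Without WT replicates 1 and 4 there were 13 pairs without overlap and without WT replicates 2 and 3 there were 15. Smaller groups overlap less often by construction, so none of these pair counts can be set against the 7 from all arrays. With arrays centred on their own medians, the family's median was 0.05. The share of all tested probe sets called is given for the reported analysis only.

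Same-numbered cultures deviated together with correlations of 0.04, 0.23, -0.08 and 0.06, which misses the mark of every correlation over 0.1 that was set for pairing. Replicates 1 and 2 matched best with their own numbers in WT, and replicates 3 and 4 did not. With the replicate block, limma called 5 genes higher, with RPL41A added (log2 fold change 0.31, adjusted p = 0.0483), and 0 lower. For 11 of the 50 paralog pairs, A minus B differed with 1 sign in all 4 same-numbered comparisons. A pair without overlap between the strains meets this by construction, so the 11 cannot be set against the 7 pairs without overlap.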
